A study of Rattus norvegicus with 40 samples.

Results

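Gastrocnemius and triceps of the same 10 male Wistar rats were compared at 20 months of age. The libraries were chosen by their labels, as the gastrocnemius and triceps columns of the animals numbered 21 to 30, and the muscles were paired by animal number. They made up 20 of the 40 libraries of the series. The other 20 came from the same muscles of 10 other male Wistar rats at 22 months, numbered 31 to 40. They are set as separate animals beside those of 20 months. They were also used to choose the genes of a score and in fits of all 40 libraries. Animals are called below by their replicate number, 1 to 10, within an age. No treatment, transgene or deletion was named in the labels of either age, and a single library was made from each muscle, so the spread between animals includes that of dissection and library preparation.

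Gastrocnemius is a calf muscle of the hind limb that extends the ankle, and triceps is a muscle of the fore limb that extends the elbow. Skeletal muscle is a mixture of slow and fast fibres, which use different isoforms of myosin, troponin and other contractile proteins, with vessels, nerve, connective tissue and resident immune cells between them. Fore and hind limbs are laid down under different patterning genes in the embryo, and adult muscle can keep part of that positional expression. The paper states that ageing rats of this Wistar strain develop peripheral neuropathy, with muscle loss in the hind limbs. The contrast holds no young animals, so lasting differences between the muscles and those of hind limb ageing cannot be told apart. In RNA from whole muscle, fewer cells of a type and less RNA per cell cannot be told apart. The count table named genes by Ensembl identifier alone, and 0 of its 32545 identifiers could be matched to a symbol, so fibre type genes, patterning genes and markers of other cells could not be looked up and the muscle labels were not checked against known markers. Genes are therefore described by identifier, direction, size and level.

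Total counts were 11569197 to 30710227 per library in gastrocnemius and 10983887 to 68580194 in triceps, and did not differ between the muscles by more than the spread over animals (exact sign-flip permutation test over 10 animals, two-sided, p = 0.766). Gastrocnemius libraries detected 17357 ± 432 genes and triceps libraries 16615 ± 558 (SD, n = 10 each), higher in gastrocnemius in 7 of 10 animals (exact permutation test, p = 0.0176, Benjamini-Hochberg adjusted p = 0.0527 over 3 tests). The share held by the top 50 genes of a library was 42.3 ± 3.41% in gastrocnemius and 44.9 ± 2.98% in triceps (exact permutation test, p = 0.131, adjusted p = 0.196). Libraries that stand apart are given here first because later values rest on them. The triceps libraries of animals 7 and 10 and the gastrocnemius libraries of animals 8, 9 and 10 were at the other muscle's end of a set of variable genes described below. Call counts, the score, the first components and the summed shares are also given without animals 7 and 10, and call counts without animals 8 and 9.

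Gene expression differed between the muscles in 506 of 12426 genes tested, which is 4.07% (edgeR quasi-likelihood F-test with the animal as a block, Benjamini-Hochberg adjusted p under 0.01). Of these, 316 genes (2.54% of those tested) were higher in gastrocnemius and 190 genes (1.53%) were lower. The larger differences were mostly on the side of gastrocnemius. Among called genes, 126 were more than 2-fold higher there and 33 more than 2-fold lower. More than 4-fold differences were called for 48 higher genes and 1 lower gene, and more than 8-fold differences for 19 higher genes and no lower gene. Differences over all genes tested were small, with a median absolute log2 difference of 0.14 beside a median standard error (SE) of 0.10. An unadjusted p under 0.05 was reached by 3627 genes, or 29.2% of those tested. The number of calls depended on the tool. DESeq2 called 1227 genes, 638 higher and 589 lower, a more even split than that of edgeR, and its calls included all 506.

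**Figure D1:**
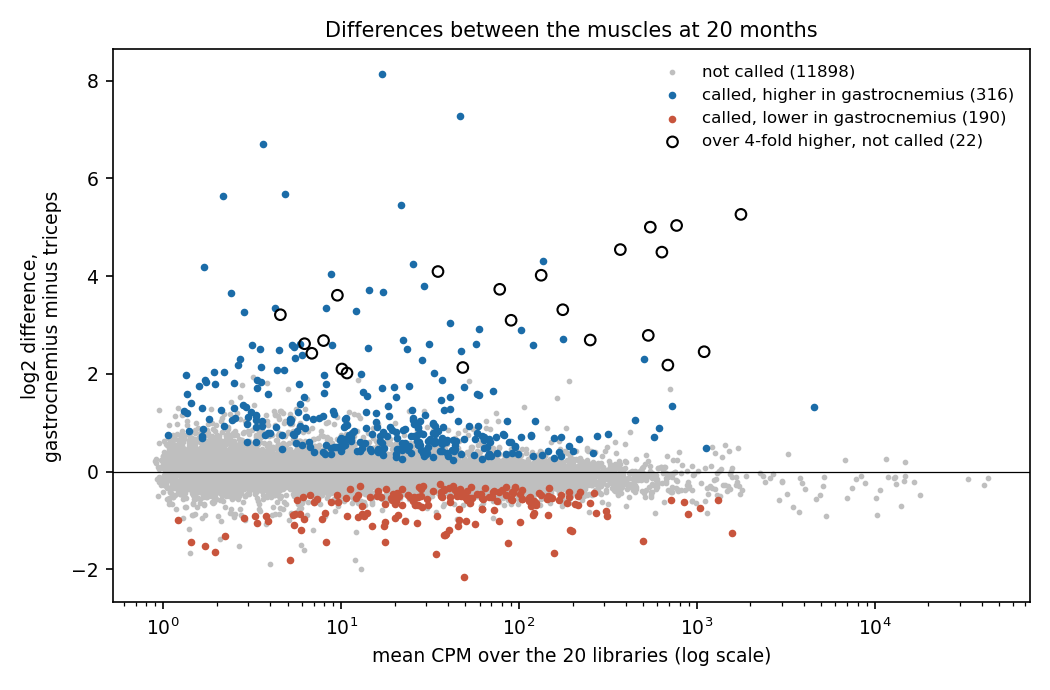
Each point is 1 of the 12426 genes tested at 20 months, placed by its mean level over the 20 libraries (x axis, CPM, a gene's count relative to the scaled total of its library, log scale) and its log2 difference, gastrocnemius minus triceps (y axis). Blue points are the 316 genes called higher, red points the 190 called lower, grey points genes not called, and open circles the 22 genes more than 4-fold higher that were not called and the upper side reaches log2 8.13 and the lower side -2.16.

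The gene with the largest difference, ENSRNOG00000016149, separated every gastrocnemius library from every triceps library. In gastrocnemius of animals 1 to 10 its level was 34.7, 39.1, 38.0, 32.3, 23.6, 36.5, 34.7, 34.6, 31.5 and 32.0 CPM. In triceps it was 0.266, 0, 0, 0, 0.175, 0.473, 0, 0.0874, 0 and 0 CPM in the same order. The groups did not overlap, and the lowest gastrocnemius level was 49.995 times the highest triceps level. The gene had 7722 counts over the gastrocnemius libraries and 29 over the triceps libraries, of which 19 were in animal 6. Of the triceps libraries, 6 had no count, where a count of 0 allows up to 3 counts, or 0.0509 to 0.279 CPM depending on depth. The log2 difference was 8.13 ± 0.39 (SE, edgeR adjusted p = 2.09e-07, higher in 10 of 10 animals). With so few triceps counts the fitted size depended on the method, at 9.68 with DESeq2, 9.06 with limma-voom, 9.78 after every library was thinned to the smallest total, and 9.15 without animal 6. The triceps libraries of animals 7 and 10, which stand apart in other genes, were both at 0 for this gene, and the gastrocnemius libraries of animals 8, 9 and 10 were within the range of the other animals.

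ENSRNOG00000026087 was also close to absent from triceps, but its gastrocnemius level covered a wider range over animals. Its gastrocnemius levels in animals 1 to 10 were 2.27, 130.1, 178.3, 173.9, 95.7, 17.3, 95.6, 74.1, 111.8 and 47.4 CPM. The triceps levels were 0.0887, 1.46, 0.0655, 0.0509, 1.11, 0.423, 2.46, 0, 0.111 and 0.279 CPM. Gastrocnemius was higher in each of the 10 animals, but the groups overlapped at 1 point, where gastrocnemius of animal 1 (2.27 CPM) was below triceps of animal 7 (2.46 CPM). Of 130 triceps counts, 60 were in animal 7. The log2 difference was 7.28 ± 0.55 (SE, edgeR adjusted p = 8.78e-06).

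Of the genes lower in gastrocnemius, ENSRNOG00000051548 had the largest difference. Its gastrocnemius levels in animals 1 to 10 were 39.4, 39.9, 7.54, 9.28, 12.1, 23.4, 7.74, 23.6, 16.02 and 19.4 CPM. The triceps levels were 75.5, 110.7, 92.6, 54.7, 97.4, 92.0, 56.6, 71.9, 75.7 and 56.9 CPM. The groups did not overlap, with the highest gastrocnemius library at 39.9 CPM and the lowest triceps library at 54.7 CPM. Gastrocnemius of animals 1 and 2 was closest to triceps. The gene fell by 2.16 ± 0.23 on the log2 scale (SE, edgeR adjusted p = 0.000108, lower in 10 of 10 animals).

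ENSRNOG00000011180 was expressed at a low level in both muscles, and was lower in gastrocnemius in every animal. Gastrocnemius of animals 1 to 10 gave 4.89, 3.03, 2.45, 1.18, 2.80, 0.682, 3.27, 1.07, 1.56 and 2.72 CPM. Triceps gave 10.995, 11.5, 9.70, 6.71, 9.28, 5.65, 4.64, 5.94, 11.5 and 3.63 CPM. The lowest triceps libraries were those of animals 10 and 7, both below the highest gastrocnemius library, so the groups overlapped, and these 2 animals had the smallest differences. The gene fell by 1.82 ± 0.25 on the log2 scale (SE, edgeR adjusted p = 0.000888). Without each animal in turn, with genes kept at 1 CPM in 9 libraries to match the animals left, the 4 genes kept their direction and an edgeR adjusted p under 0.01. Without animals 8 and 9 together, ENSRNOG00000011180 was at -1.63 with an edgeR adjusted p of 0.0108, and the other 3 genes stayed called.

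**Figure D2:**
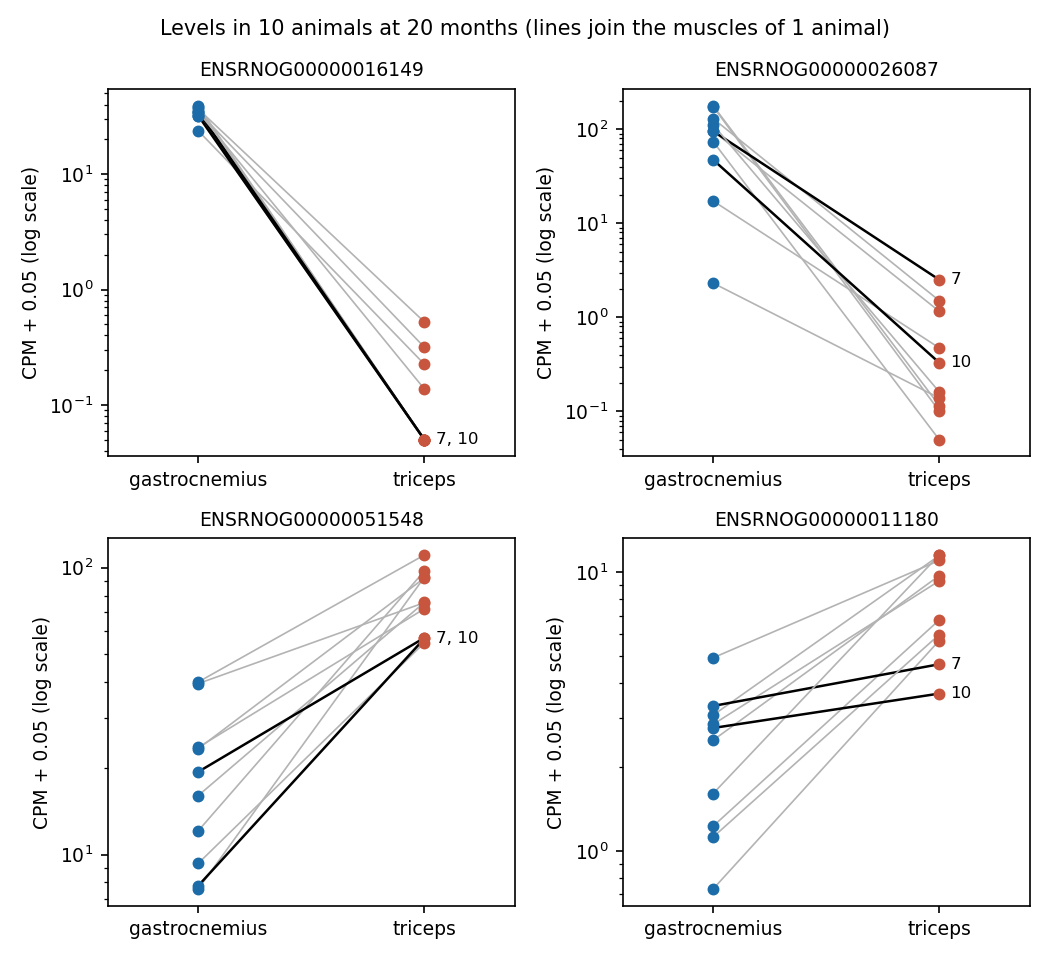
Levels of the 4 genes in each library at 20 months (y axis, CPM plus 0.05, log scale) in gastrocnemius (blue) and triceps (red), with a line for each of the 10 animals and black lines for animals 7 and 10. The lines of the upper genes fall and those of the lower genes rise in 10 of 10 animals, and ENSRNOG00000016149 shows the widest gap, from 23.6 CPM in the lowest gastrocnemius library to 0.473 CPM in the highest triceps library.

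The next 10 genes in each direction by size, among called genes that averaged 5 CPM or more and had 1 direction in at least 9 animals, differed in how cleanly they separated the muscles. The 10 higher genes had log2 differences of 3.05 to 5.46, 9 of them were higher in all 10 animals, and 6 did not overlap between the muscles. The 10 lower genes had log2 differences of -1.68 to -1.25, 7 of them were lower in all 10 animals, and 0 were free of overlap. All 20 were called at 22 months as well, beside 21.1% of all genes tested there (2647 of 12565, edgeR with the animal as a block). Of the genes called at 20 months and tested at 22, 95.2% were called there, so the 20 are not unusual among called genes. The limit of 5 CPM left out 3 called genes with larger differences than these higher genes, of log2 5.64 to 6.71, which did not overlap between the muscles, and at least 1 lower gene of similar size that did not overlap either.

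Genes called higher took up about 2 times the share of counts in gastrocnemius that they had in triceps. Their summed share was 2.64 ± 0.77% of the counts in gastrocnemius and 1.203 ± 0.19% in triceps (SD, n = 10 each), and their median log2 difference was 0.82. Of the 316 genes, 233 were higher in all 10 animals and 314 in at least 9. The genes called lower took 1.43 ± 0.19% in gastrocnemius and 2.17 ± 0.24% in triceps, with a median log2 difference of -0.57. Of the 190 genes, 134 were lower in all 10 animals and 189 in at least 9. Without animals 7 and 10 the shares of the higher genes were 2.57 ± 0.78% and 1.12 ± 0.08%, and those of the lower genes 1.43 ± 0.17% and 2.25 ± 0.21% (SD, n = 8). Since the genes were called on these values, the shares describe the calls and are not a test of them. Over all genes tested, 649 had 1 direction in all 10 animals.

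Levels that did not overlap between the 10 gastrocnemius and the 10 triceps libraries were found in 50 genes, 0.402% of those tested, 41 higher and 9 lower in gastrocnemius. Their absolute log2 differences ranged from 0.22 to 8.13, with a median of 1.36, so that some small differences were also clean in every library. Of the 50 genes, 47 were called at 20 months, beside 4.07% of all genes tested. Choice and call used the same levels, so the 47 are not separate support. Of the 49 genes tested at 22 months, 48 were called there. At that age 21.1% of all genes were called, and 95.2% of the genes called at 20 months.

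Few called genes were close to absent from 1 muscle. Of the 316 higher genes, 26 had a mean below 1 CPM in triceps, and 8 of these had at least 5 CPM in gastrocnemius, with a median log2 difference of 4.86 and the same direction in 10 of 10 animals for all 8. Of the 190 lower genes, 4 had a mean below 1 CPM in gastrocnemius, and 0 of these reached 5 CPM in triceps. By these limits, no called gene expressed in triceps was near zero in gastrocnemius.

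The direction of the calls shifted with abundance. Among 4573 genes with a mean under 10 CPM, 105 were called higher and 28 lower in gastrocnemius. Between 10 and 100 CPM the counts were 182 and 115 of 6617 genes. Between 100 and 1000 CPM they turned, with 27 genes called higher and 44 lower of 1146. Over 1000 CPM, 2 were called higher and 3 lower of 90 genes, and these 90 genes held 47.1 ± 3.46% of the counts in gastrocnemius and 49.9 ± 2.99% in triceps (SD, n = 10). Whether these splits differ from each other was not tested.

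A set of 22 genes was on average more than 4-fold higher in gastrocnemius and was nevertheless not called. The set was found after the values were seen, from the same contrast, so its levels are a description. Its log2 differences were 2.02 to 5.26, a range that overlapped that of the 48 called genes past the same fold. The median SE was 0.83 against 0.36 for the called genes, a gap that the split by call favours. The adjusted p were 0.0105 to 0.0741 (edgeR, 20 of the 22 under 0.05). The genes were not rare. Their mean levels ran from 4.56 to 1767 CPM, with a median of 111.7 CPM.

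The 22 genes rose and fell together across the libraries. Summed, they took 0.972, 0.928, 1.30, 2.25, 1.11, 1.92, 2.53, 0.129, 0.191 and 0.155% of the counts in gastrocnemius of animals 1 to 10. In triceps they took 0.329, 0.0387, 0.0245, 0.0443, 0.0243, 0.155, 1.62, 0.0236, 0.0157 and 1.404%. Gastrocnemius of animals 8, 9 and 10 was thus low, and triceps of animals 7 and 10 was high. In 22 of the 22 genes the 3 lowest gastrocnemius libraries were those of animals 8, 9 and 10, and in 21 genes the 2 highest triceps libraries were those of animals 7 and 10. The median over the genes of the level in animals 1 to 7 relative to animals 8 to 10, by their medians, was 7.64 in gastrocnemius. Triceps of animal 7 exceeded the median of the 8 other triceps libraries by a median ratio of 44.0, and triceps of animal 10 by one of 58.7.

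Animal 10 went against the other animals in this set. Its gastrocnemius was lower than its triceps for all 22 genes, while animal 7 was higher in gastrocnemius for 20 and each of the other 8 animals for 22. Of the 48 called genes past 4-fold, 45 were higher in gastrocnemius of animal 10, the same count as in animal 1. The 48 and the 22 were split by a call that included animal 10, so this contrast follows largely from the split. ENSRNOG00000016149 stood at 32.0 CPM in gastrocnemius of animal 10 and at 0 in its triceps. With genes kept at 1 CPM in as many libraries as animals were left, all 22 were tested in each of the following fits. The animals left out together were chosen from the levels of these same genes. The counts that follow therefore describe the set and are not a test of it. Without animal 10, 21 of the 22 genes were called, and without any other single animal 0 were called. Because animal 10 was opposite in all 22, its removal favours such calls. Without animals 7 and 10, 22 were called, with log2 differences of 2.68 to 6.41. Without animals 8 and 9, 0 were called (edgeR adjusted p of 0.0452 to 0.195), without animals 8, 9 and 10, 13 were called, and without animals 7, 8, 9 and 10, 20 were called. The part of dissection, library preparation, fibre make-up or hind limb ageing in this set was not tested.

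**Figure D3:**
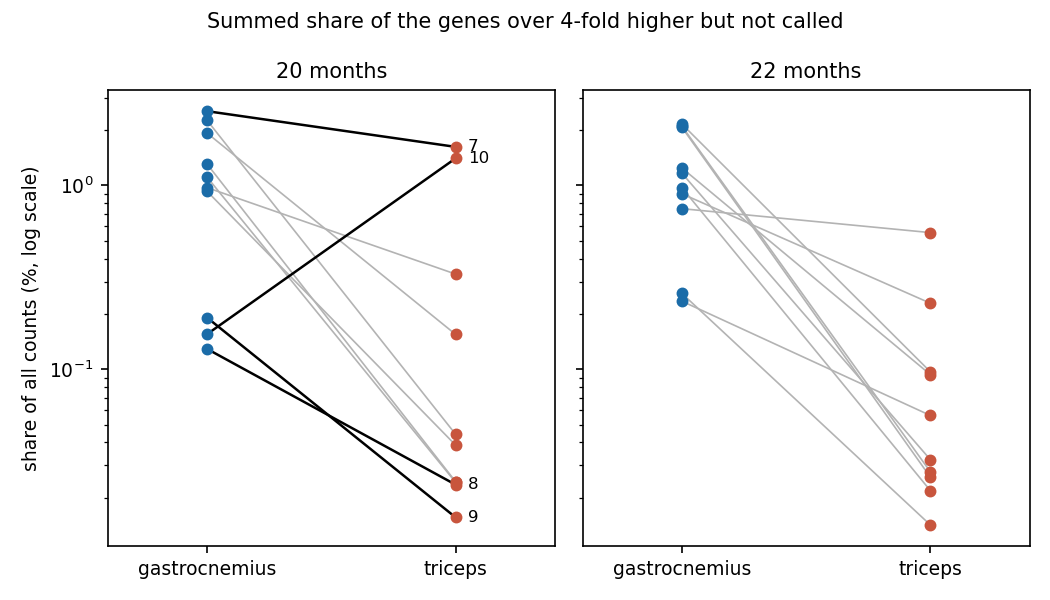
Summed share of all counts (y axis, percent, log scale) of the 22 genes more than 4-fold higher in gastrocnemius but not called at 20 months, in gastrocnemius (blue) and triceps (red) at 20 and 22 months, with a line for each animal. At 20 months the black lines mark animals 7, 8, 9 and 10, of which animal 10 alone rises from gastrocnemius (0.155%) to triceps (1.404%).

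In the separate animals at 22 months, 21 of the 22 genes were called, beside the 21.1% of all genes. All 22 were higher in gastrocnemius, with log2 differences of 2.46 to 5.94. Their summed share was 0.235 to 2.16% in gastrocnemius, with a median of 1.07%, and 0.0142 to 0.554% in triceps, with a median of 0.0442%. The medians at 20 months were 1.04 and 0.0415%. No triceps library at 22 months reached the level that animals 7 and 10 had at 20 months.

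The leading patterns of variation among the 20 libraries followed muscle only in part. The first principal component of log2 CPM held 32.1% of the variance, and was higher in gastrocnemius in 9 of 10 animals, with animal 10 the other way (-0.33 in gastrocnemius and 4.92 in triceps). Triceps of animal 7 stood at 25.2 on this component, among the gastrocnemius libraries. The second component held 16.1% and was higher in gastrocnemius in 10 of 10 animals, although the groups overlapped. Without animals 7 and 10, the first component held 34.8% of the variance and separated the muscles without overlap in the 8 animals, while on the second, with 13.4%, they overlapped. These 2 animals were chosen after seeing the data. In the fit of all 20 libraries only their triceps stood above the lowest gastrocnemius library (-2.26) on the first component. The separation without them follows largely from that choice and is not a test. The sign of each component was set so that gastrocnemius had the higher mean.

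**Figure D4:**
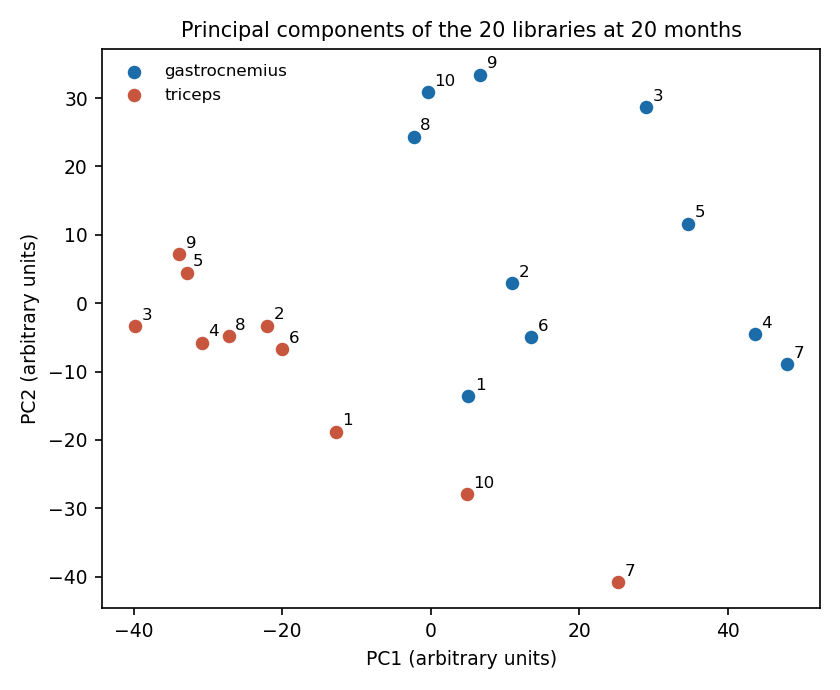
The 20 libraries at 20 months on the first (x axis) and second (y axis) principal components, in arbitrary units, which hold 32.1% and 16.1% of the variance. Gastrocnemius libraries are blue and triceps libraries red, numbered by animal, and triceps of animals 7 and 10 lie to the right of the other 8 triceps libraries.

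Genes chosen in the 22-month animals allowed the muscles at 20 months to be described on values that had no part in the choice. Of genes called and more than 2-fold higher in gastrocnemius at 22 months, 319 were tested at 20 months, and 166 of these (52.0%) were called there, beside 4.07% of all 12368 genes tested at both ages. All 319 had the same sign, beside 10410 of the 12368 genes tested at both ages. The 319 genes had a median log2 difference of 1.09 at 20 months and 1.499 at 22 months. Of 173 genes more than 2-fold lower at 22 months, 69 (39.9%) were called at 20 months and 172 had the same sign, with medians of -0.76 and -1.24. The medians at 22 months are those of the genes' own selection and are not a comparison of ages. In the other direction, 479 of the 503 genes called at 20 months and tested at 22 were called there (95.2%), which is 18.1% of the 2647 calls at 22 months. All 503 kept their sign, again beside 10410 of 12368 over all genes.

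Whether a muscle difference itself differed between the ages was tested in all 40 libraries. No gene of 12980 was called, and the smallest edgeR adjusted p was 0.932, with 585 genes (4.51%) at an unadjusted p under 0.05. DESeq2 and limma-voom also called 0, with 679 and 602 genes under an unadjusted p of 0.05. The larger number of calls at 22 months is thus not matched by a gene whose difference between muscles changed past the threshold. ENSRNOG00000026087 had a log2 difference of 9.74 ± 0.44 at 22 months and a difference between ages of 2.45 ± 0.87 (SE, edgeR unadjusted p = 0.00992, adjusted p = 0.932). For ENSRNOG00000051548 the log2 difference at 22 months was -3.18 ± 0.20, and the difference between ages was -1.02 ± 0.32 (SE, edgeR unadjusted p = 0.00381, adjusted p = 0.932). The difference between ages was 1.38 ± 0.90 for ENSRNOG00000016149 (SE, edgeR unadjusted p = 0.141) and -0.68 ± 0.35 for ENSRNOG00000011180 (unadjusted p = 0.0654), with the same adjusted p.

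The genes chosen at 22 months were summed into a score for each library, the mean log2 CPM of the 319 higher genes minus that of the 173 lower genes. In gastrocnemius of animals 1 to 10 the score was -1.68, -1.24, 0.45, 0.34, -0.17, -0.997, 0.47, -1.40, -1.12 and -1.43. In triceps it was -2.75, -3.19, -3.62, -3.25, -3.45, -3.23, -1.60, -3.20, -3.36 and -1.97. Gastrocnemius was higher in each animal, and the groups overlapped only between triceps of animal 7 and gastrocnemius of animal 1. The difference was 2.28 ± 1.10 (SD, n = 10), from 0.54 in animal 10 to 4.07 in animal 3. Without animals 7 and 10 it was 2.53 ± 1.02 (SD, n = 8) and the muscles did not overlap. These 2 animals were chosen after seeing the data. Animal 7 held the only overlap and animal 10 the smallest difference, so both changes follow from the choice and are not a test. As for the size of the difference at 22 months, it was 3.32 ± 0.92 (SD, n = 10) in the animals that chose the genes, from 2.01 to 4.49.

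**Figure D5:**
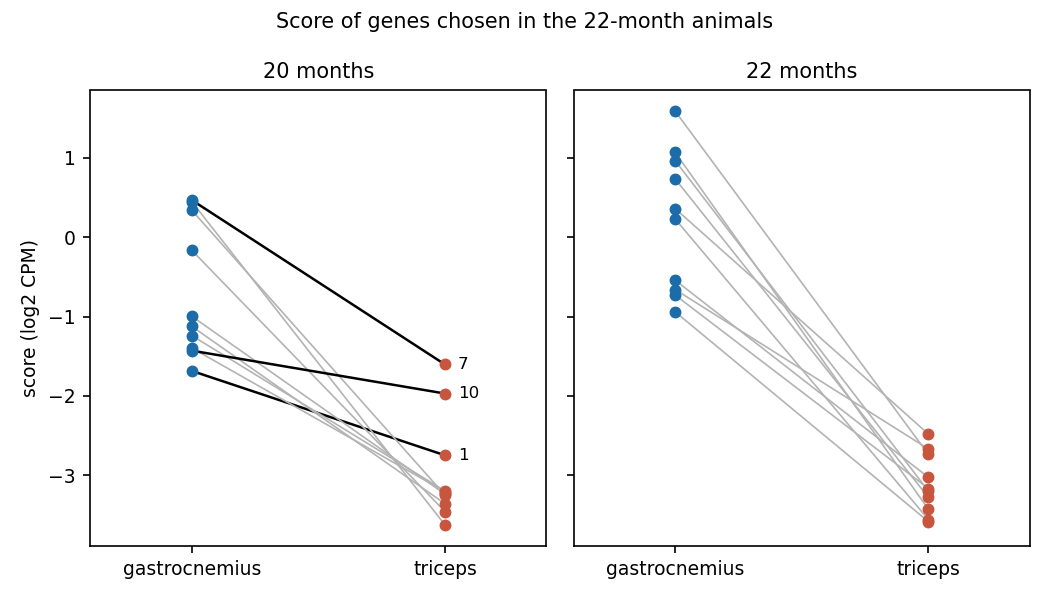
Score of each library (y axis, mean log2 CPM of the 319 genes higher in gastrocnemius at 22 months minus that of the 173 lower genes) in gastrocnemius (blue) and triceps (red) at 20 and 22 months, with a line for each animal and black lines for animals 1, 7 and 10 at 20 months. Animal 10 has the flattest line at 20 months, with a difference of 0.54, and the genes were chosen on the 22-month values.

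Animals differed in how far their muscles were apart and in which genes. Animals 3, 4 and 5 had the largest score differences (4.07, 3.59 and 3.29). In animal 3, 318 of the 319 higher genes and 173 of the 173 lower genes moved in their 22-month direction. In animal 10 these counts were 208 (65.2%) and 84 (48.6%), the lowest of the 10 animals in each. Animal 1 came next, with 251 and 142. The overall distance between the muscles, as the root mean square of the log2 differences over genes that averaged 10 CPM or more, gave another order. It was 0.52 ± 0.12 (SD, n = 10), lowest in animal 1 at 0.29 and highest in animal 4 at 0.70, and animal 10 at 0.54 was near the middle. Across these genes, the differences of animal 10 correlated with the mean differences of the other 9 animals at a Pearson r of 0.12, against 0.54 to 0.88 for the others. Genes are not independent replicates, and r is given as a description.

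Leaving out 1 animal moved the number of called genes at 20 months from 213 to 715. Without animal 10 it was 715, of which 459 were among the 506. Without animals 1 to 9 in turn it was 515, 353, 224, 255, 213, 362, 284, 270 and 242. Without animals 7 and 10 together 498 genes were called, and 331 were among the 506. Without animals 8 and 9 together 105 were called, 104 of them among the 506. With animal 10 left out as well as animals 8 and 9, 383 were called, 220 of them among the 506. These fits kept genes at 1 CPM in as many libraries as animals were left, a choice made after seeing the data. The animals left out together were also chosen after seeing the data. The planned limit of 10 libraries removes a gene expressed in gastrocnemius alone once an animal is left out.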

How the data were processed

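RNA was sequenced from 2 muscles of each animal. Extraction used the miRNeasy kit. Libraries of polyadenylated RNA were built with the TruSeq v2 kit, which does not mark strand. Values were whole-number read counts per gene, deposited by the authors as 1 table without normalization. The submitters' processing notes name CASAVA 1.8, STAR 2.3.0e and HTSeq and the build Rnor_6.0, without role or order. The study's methods describe kallisto for rat, another way of counting. Unstranded counting cannot part genes that overlap on opposite strands, and reads shared by similar genes may be split or lost.

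All 32545 rows were Ensembl identifiers, 9545 of them empty in all libraries. Titles of the samples identified every column. No symbol table could be joined (0 matched of 47357 annotated genes), so the gene lists, cell markers, mitochondrial share and promoter sequences that had been planned were not used here. Genes were named by rule, as the 2 in each direction with the largest log2 difference among called genes that averaged 5 CPM or more and had 1 direction in at least 9 of 10 animals.

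In R 4.3.3 with edgeR 4.0.16, genes with at least 1 CPM in 10 or more of the libraries of a comparison entered the fit. After TMM scaling, muscle was tested with the quasi-likelihood F-test, animal as a block, two-sided. SE was taken from the F statistic. Levels are TMM-scaled CPM. Scores, distances and components used log2 CPM with a prior count of 2, scaled separately at each age. Alternatives included DESeq2 1.42.0 and limma-voom (limma 3.58.1). Of the fits, only the paired edgeR fit at 20 months was tested on simulated data. It called 62% of genes changed 1.5-fold, 86% of those changed 2-fold and 100% of those changed 4-fold. Pairing comes from the animal numbers. Deviations from group means correlated between the muscles of an animal at a median r of 0.20 (6 of 10 pairs over 0.1), with a range of -0.33 to 0.65. Between animals the median was -0.04. The least different pair of libraries within a group gave 12.1 chi-square units per gene, and none agreed within sampling noise. The animals, comparisons and rules were chosen with earlier results of these data known. The labels give no batch or date, so none could be tested. Limits from counts of 0 cover counting error only.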

Additional observations from a re-analysis of the deposited data

Results flagged for a closer look

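Of 28 sets of 10 values searched for a value far from the others, 4 had one, and chance gives about 1 in 20 sets. Triceps of animal 4 had the largest total count, 68580194, with the next at 39910210, and 389 genes were called after thinning every library to the smallest total. The gastrocnemius level of ENSRNOG00000016149 was lowest in animal 5, at 23.6 CPM, with the next at 31.5 CPM. The muscle differences of animal 10 stood apart across genes from the mean differences of the other 9 animals (Pearson r 0.117, next lowest 0.545) and from the fitted differences at 22 months (r 0.156, next lowest 0.551). The cause was not tested.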

How the results depend on the processing

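At 20 months the count of 506 called genes became 1227 with the DESeq2 Wald test, 1561 at an adjusted p under 0.05 and 837 with all 40 libraries in 1 fit. It was within 1.5 times of 506 with DESeq2 size factors, without a filter on low counts, at 5 CPM, with limma-voom, after thinning and without animals 7 and 10 (479, or 498 with the limit below). Without each animal in turn it ranged from 203 (without animal 5) to 707 (without animal 10), and moved by over 1.5 times without animals 2, 3, 4, 5, 7, 8 and 9. With genes kept at 1 CPM in as many libraries as animals were left, added after seeing the data, it ranged from 213 to 715 (224, 255, 284, 270 and 242 without animals 3, 4, 7, 8 and 9). Under the same limit it was 105 without animals 8 and 9, 383 without animals 8, 9 and 10, and 308 without animals 7, 8, 9 and 10. Without the replicate block, that is unpaired, 467 genes were called (297 higher, 170 lower), of which 366 were among the 506. At 22 months the 2647 calls became 4497 at an adjusted p under 0.05 and ranged from 1949 to 2869 without each animal. The difference between ages gave 0 calls in every setting run. The difference in total count, gastrocnemius minus triceps, was -2331980 and ranged from -4659470 to 2554590 without each animal, positive without animal 4. The difference in genes detected was 742.5 and ranged from 602.1 to 841.1 without each animal, with an exact permutation adjusted p of 0.0469 without animals 6, 7 or 9. The 4 named genes kept their direction wherever tested, and their call except ENSRNOG00000011180 without animals 8 and 9 (adjusted p 0.0108). ENSRNOG00000016149 was not tested without an animal under the limit of 10 libraries, and ENSRNOG00000026087 and ENSRNOG00000011180 were not tested at 5 CPM. Alternatives for gene lists were not run, since no symbol could be matched. Depth limits genes near 1 CPM, where a library of the smallest total holds few counts.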
